A study of Mus musculus with 15 samples.

Results

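Polycomb group genes encode chromatin complexes that keep developmental genes silent. The data set held 10 of them, chosen by name: the core genes of Polycomb repressive complex 2 (PRC2) Ezh1, Ezh2, Eed and Suz12, the PRC2 partner Jarid2, the genes Bmi1, Cbx2 and Cbx7 of Polycomb repressive complex 1 (PRC1), and Bcor and Kdm2b of the variant PRC1 that carries Bcor. They were 10 of the 23329 genes in the count files, and all 10 passed the filter on low counts together with 14880 genes in all. RNA counts of 15 mouse tumors were analysed, with 1 library per mouse. The study sequenced 4 tumors per genotype and left out 1 EμMyc/Casp2-/- tumor as an outlier. The groups were 4 EμMyc lymphomas (age at onset 13 to 19 weeks), 3 EμMyc/Casp2-/- lymphomas (8 to 12 weeks), 4 Th-MYCN neuroblastomas (10 to 21 weeks) and 4 Th-MYCN/Casp2-/- neuroblastomas (15 to 24 weeks). Lymphomas came from cervical lymph nodes of C57BL/6 mice whose c-Myc transgene is under the Eμ enhancer of the antibody heavy chain, active in B lineage cells. Neuroblastomas were thoracic tumors beside the spine of Sv129/C57BL6 mice whose MYCN transgene is under the promoter of tyrosine hydroxylase, active in the sympathetic lineage. The study picked the neuroblastomas for absent or reduced blood vessels. Casp2, the gene lacking in the knockout groups, encodes a caspase that acts in cell death and in the response to stress. The comparisons asked how tumors with and without Casp2 differ, and how these differences compare between both tumor types. Tumor type, tissue, oncogene and strain background cannot be told apart in these data, and neither can age and genotype among the lymphomas. In bulk tumors, fewer cells of a type and less RNA per cell cannot be told apart.

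PRC2 places methyl groups on lysine 27 of histone H3. Ezh1 and Ezh2 are its alternative enzymes, Eed binds the finished mark and activates the enzyme, and Suz12 holds the complex together, while Jarid2 guides it to chromatin. Canonical PRC1 reads the mark through a CBX protein such as Cbx2 or Cbx7 and contains Bmi1 or its relative Pcgf2 beside a ubiquitin ligase, Ring1 or Rnf2, that modifies histone H2A. In the variant PRC1 with Bcor, Kdm2b binds unmethylated CpG islands and brings Bcor and Pcgf1 with it. In B cells these complexes are known for their part in germinal centers and for holding down the Cdkn2a tumor suppressor locus, and EZH2 is known to be high in poorly differentiated neuroblastoma.

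Sequences upstream of the start are shown for Eed and Bmi1, the members with the largest differences between tumor types in each direction, and for Suz12, the core subunit whose letters held a listed E2F motif. They are the 250 bases before the RefSeq transcription start in GRCm38.p6, 5′ to 3′, with a match in capitals.
Bmi1, chr2:18676768-18677017, plus strand: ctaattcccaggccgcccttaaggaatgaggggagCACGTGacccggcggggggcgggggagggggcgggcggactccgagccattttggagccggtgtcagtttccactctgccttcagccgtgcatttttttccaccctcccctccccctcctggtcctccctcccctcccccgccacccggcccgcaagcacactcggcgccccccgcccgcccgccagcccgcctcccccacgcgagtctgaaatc
Suz12, chr11:79992856-79993105, plus strand: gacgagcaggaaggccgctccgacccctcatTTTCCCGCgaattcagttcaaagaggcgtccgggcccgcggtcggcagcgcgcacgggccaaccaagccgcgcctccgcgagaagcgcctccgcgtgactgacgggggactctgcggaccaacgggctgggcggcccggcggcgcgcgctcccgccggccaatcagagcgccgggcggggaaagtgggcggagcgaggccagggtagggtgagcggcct
Eed, chr7:89980977-89981226, minus strand: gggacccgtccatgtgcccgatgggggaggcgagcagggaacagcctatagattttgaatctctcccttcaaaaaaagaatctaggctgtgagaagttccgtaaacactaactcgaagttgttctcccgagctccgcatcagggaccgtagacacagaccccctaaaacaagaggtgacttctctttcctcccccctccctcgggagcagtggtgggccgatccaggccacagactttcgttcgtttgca
The E-box CACGTG, the letters bound by MYC and MYCN with their partner MAX, was found 215 bases before the start of Bmi1. The E2F motif was searched as TTTCCCGC, TTTGGCGC, TTTCGCGC or TTTGCCGC on both strands, and Suz12 held the first of these 219 bases before its start. Of 14 promoters of 9 members in the RefSeq table, 1 held the E-box and 1 an E2F motif. Among all 32851 promoters, windows of the same length held the E-box in 6.02% and an E2F motif in 1.86%. Eed held neither in this window. A match of letters is a description and says nothing of binding in these tumors.

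Libraries held 4940464 to 17638029 reads on genes, with the fewest in the EμMyc/Casp2-/- tumor EuMycC2ko215, so that 3 reads, taken as the smallest detectable value, came to between 0.17 and 0.607 CPM (read counts divided by the TMM-scaled library size). Reads on single members ran from 52 (Cbx7 in MYCNC2ko176) to 4721 (Suz12 in EuMyc829). Casp2 itself, counted over the whole gene with no separation of deleted exons, was at 125.3 to 202.8 CPM in EμMyc and 51.9 to 76.1 CPM in EμMyc/Casp2-/- tumors (log2 -1.35, LRT FDR 0.0004, QLF FDR 0.0536). In neuroblastomas it ranged from 76.0 to 125.5 CPM with Casp2 intact and from 39.6 to 80.2 CPM in the Casp2-/- tumors, which overlapped (log2 -0.79, LRT FDR 0.102). The study reported that genotyping and immunoblotting had established the deletion in every tumor. The defining markers fitted the labels, since all 8 B cell markers were higher and all 9 sympathetic neuroblast markers lower in lymphomas than in neuroblastomas, in both genotypes. EuMycC2ko215 stood apart from the other lymphomas. Its summed T cell markers (10 genes) came to 1625 CPM against 103 to 321 CPM in the other lymphomas, its macrophage markers (6 genes) to 1321 against 235 to 887 CPM, and its proliferation genes (10 genes) to 3026 against 4201 to 5047 CPM. By the study's description it also came from the only female mouse among the lymphomas. It was the lowest of the 7 lymphomas for 5 of the 10 members, against 29.1% of all genes tested. Where leaving it out changed a member's call or direction, the value without it is given beside the result.

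Of the 10 members, 8 passed between tumor types with Casp2 intact and 7 without it, and 0 passed between genotypes. A member was called where the Benjamini-Hochberg false discovery rate (FDR) over all genes tested, from edgeR's likelihood ratio test (LRT), was under 0.05, and the FDR of edgeR's stricter quasi-likelihood test (QLF) is given beside it. In EμMyc against Th-MYCN tumors 5 members were higher in the lymphomas, against 28.3% of all genes tested, and 3 were lower, against 33.9%. In EμMyc/Casp2-/- against Th-MYCN/Casp2-/- tumors 4 were higher, against 27.7% of all genes, and 3 lower, against 32.5%. QLF called 8 members in the first and 7 in the second comparison, against 60.3% and 58.3% of all genes. Most genes thus differed between these tumor types, and a call of a member has to be read against that background. All 7 lymphomas lay above all 8 neuroblastomas for 2 members, against 16.6% of all genes, and below them for 2, against 25.1%. The median log2 difference of the members was 0.31 and 0.21 in these comparisons, and that of all genes -0.04 and -0.05.

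**Figure D1:**
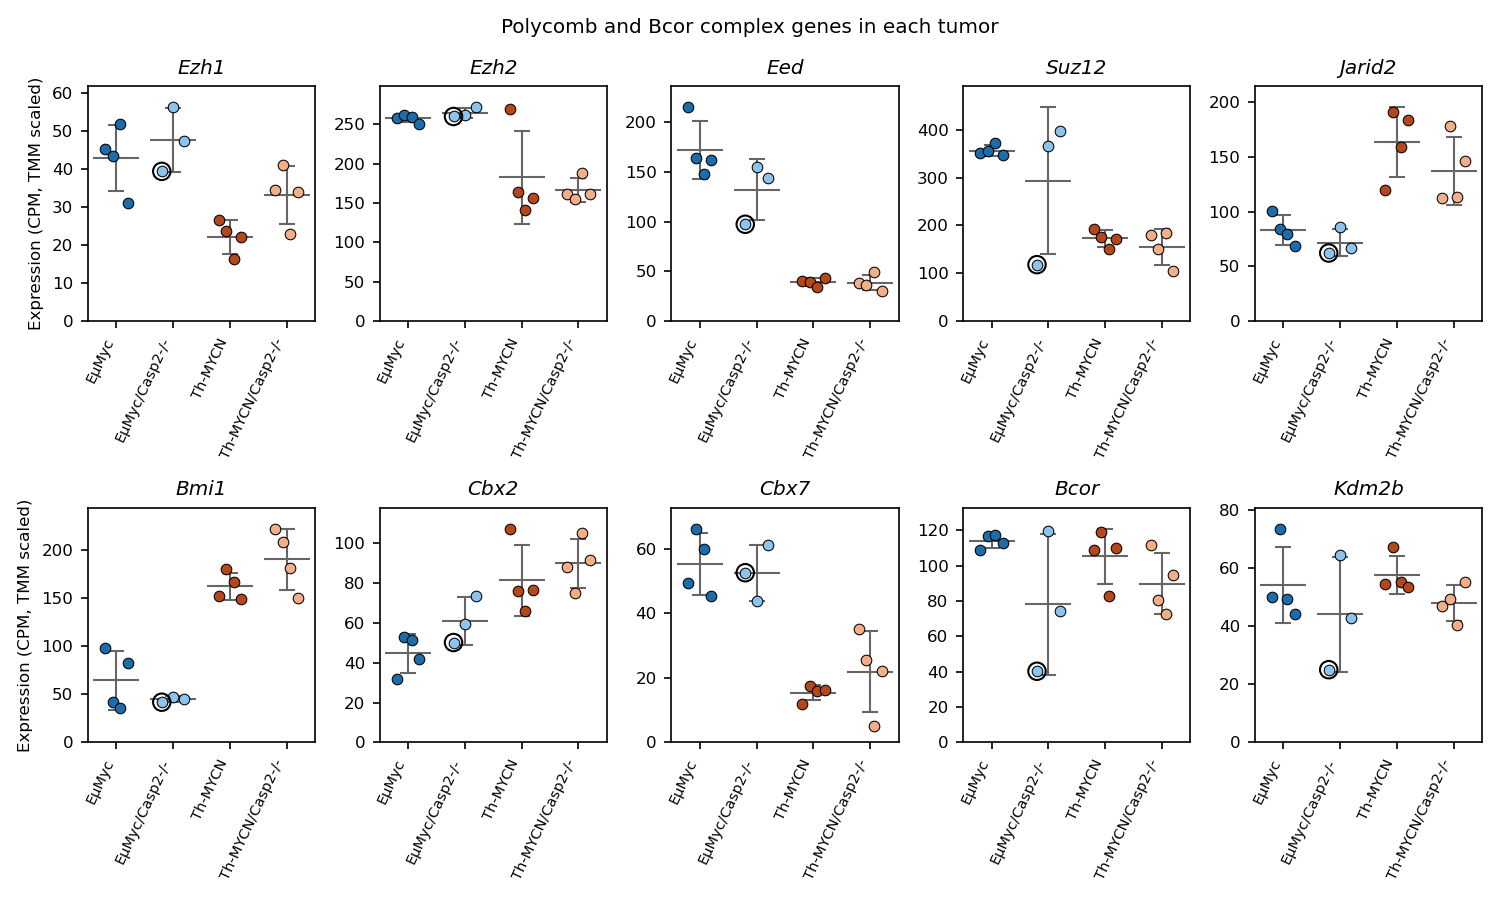
Expression of the 10 genes in CPM (vertical axis, linear, each panel with its own scale from 0) in every tumor of the 4 groups. Points are tumors, bars are the group mean and SD, and the ring marks EuMycC2ko215. Eed and Cbx7 lay higher in all 7 lymphomas and Bmi1 and Jarid2 in all 8 neuroblastomas.

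Eed (chromosome 7, 89954654 to 89980983, GRCm38), the subunit that binds trimethylated lysine 27, showed the largest difference of the PRC2 core. It was at 215, 164, 148 and 162 CPM in EμMyc and at 97.3, 155 and 144 CPM in EμMyc/Casp2-/- lymphomas. The neuroblastomas held 39.9, 38.9, 33.8 and 43.3 CPM with Casp2 intact and 38.5, 36.4, 49.0 and 30.6 CPM without it. All lymphomas thus lay above all neuroblastomas, EuMycC2ko215 (97.3 CPM) included. Eed was 4.42-fold higher in EμMyc than in Th-MYCN tumors (log2 2.14, SE 0.21, LRT FDR 2.42e-22, QLF FDR 1.81e-07) and 3.43-fold higher in the Casp2-/- pair (log2 1.78, SE 0.22, LRT FDR 2.01e-14, QLF FDR 2.66e-06). An opposite-strand gene, E230029C05Rik, shares 261 exon bases with Eed but had a median of 4 reads per tumor.

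Suz12 (chromosome 11, 79993106 to 80034123), the scaffold of PRC2, was at 352, 356, 372 and 346 CPM in EμMyc tumors. The EμMyc/Casp2-/- tumors held 118, 366 and 397 CPM, with EuMycC2ko215 the lowest of all lymphomas and below 7 of the 8 neuroblastomas. Th-MYCN tumors held 193, 176, 150 and 172 CPM, and Casp2-/- neuroblastomas held 179, 150, 185 and 104 CPM. The other 6 lymphomas lay within a narrow band above all neuroblastomas. Suz12 was 2.07-fold higher in EμMyc than in Th-MYCN tumors (log2 1.05, SE 0.29, LRT FDR 0.000944, QLF FDR 0.00487) and 1.9-fold higher in the Casp2-/- pair (log2 0.93, SE 0.32, LRT FDR 0.00664, QLF FDR 0.0155). The second difference was 1.36 on the log2 scale without EuMycC2ko215, and lost its call without EuMycC2ko245 (log2 0.64, LRT FDR 0.0993) or with sex as a covariate (log2 0.78, LRT FDR 0.0739).

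Ezh2 (chromosome 6, 47530139 to 47595341), the enzyme of dividing cells, was nearly constant among lymphomas. EμMyc tumors held 258, 262, 259 and 250 CPM and EμMyc/Casp2-/- tumors 260, 261 and 271 CPM. Th-MYCN tumors held 269, 164, 141 and 156 CPM, and Casp2-/- neuroblastomas held 161, 156, 188 and 161 CPM. A single neuroblastoma, MYCN175, reached the lymphoma range, while the other 7 lay below it. Ezh2 was 1.41-fold higher in EμMyc than in Th-MYCN tumors (log2 0.50, SE 0.19, LRT FDR 0.0195, QLF FDR 0.0229) and 1.59-fold higher in the Casp2-/- pair (log2 0.67, SE 0.21, LRT FDR 0.00318, QLF FDR 0.00664). The first call was lost without any of the Th-MYCN tumors MYCN235, MYCN332 or MYCN391 (LRT FDR 0.0696, 0.0937 and 0.0794). Ezh2 lies 5.25 Mb from Casp2 on the same chromosome, so in the comparison of genotypes its alleles may have come with those of Casp2, which was not tested.

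Ezh1 (chromosome 11, 101191115 to 101226463), the enzyme more typical of resting cells, was at 45.3, 43.5, 52.0 and 31.0 CPM in EμMyc and 39.5, 56.3 and 47.5 CPM in EμMyc/Casp2-/- lymphomas. Th-MYCN tumors held 26.7, 23.7, 16.2 and 22.1 CPM, all below the EμMyc tumors, and Th-MYCN/Casp2-/- tumors held 34.6, 41.2, 23.0 and 34.1 CPM. The Casp2-/- neuroblastomas reached into the lymphoma range. Ezh1 was 1.94-fold higher in EμMyc than in Th-MYCN tumors (log2 0.96, SE 0.25, LRT FDR 0.000434, QLF FDR 0.00224). In the Casp2-/- pair the value was 1.44-fold (log2 0.53, SE 0.27), which did not pass (LRT FDR 0.0832, QLF FDR 0.0798), but passed without EuMycC2ko215 (log2 0.71, LRT FDR 0.0266).

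Jarid2 (chromosome 13, 44729474 to 44921643), which recruits PRC2, was lower in the lymphomas. Lymphomas held 100.8, 84.0, 79.5 and 68.3 CPM in EμMyc and 62.1, 85.6 and 66.7 CPM in EμMyc/Casp2-/- tumors. Neuroblastomas held 120, 191, 159 and 184 CPM with Casp2 intact and 112, 178, 113 and 146 CPM without it, and none overlapped with a lymphoma. Jarid2 fell by 0.97 on the log2 scale in EμMyc against Th-MYCN tumors (SE 0.22, LRT FDR 2.56e-05, QLF FDR 0.000617) and by 0.94 in the Casp2-/- pair (SE 0.24, LRT FDR 0.000248, QLF FDR 0.0018). Eed, Suz12 and Ezh2 passed as higher in the lymphomas in both pairs, and Jarid2 as lower. The summed proliferation genes (10 genes) came to 4295 to 5047 CPM in EμMyc and 2685 to 3727 CPM in Th-MYCN tumors. In the Casp2-/- pair they came to 3026 to 4828 and 2707 to 3484 CPM, which overlapped. Of the 10, 4 passed as higher in lymphomas in the first pair and 3 in the second, and 0 as lower. Their part in the differences of the PRC2 genes was not tested.

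Among the PRC1 members, Bmi1 (chromosome 2, 18677018 to 18686629), which stimulates the ubiquitin ligase of PRC1, was lower in every lymphoma than in every neuroblastoma. EμMyc tumors held 98.1, 41.8, 35.9 and 82.3 CPM and EμMyc/Casp2-/- tumors 41.8, 47.7 and 45.0 CPM. Th-MYCN tumors held 152, 180, 167 and 149 CPM, and Casp2-/- neuroblastomas held 222, 208, 181 and 150 CPM. EuMyc614 and EuMyc835 lay well above the other EμMyc tumors, while the 3 EμMyc/Casp2-/- tumors lay close together. Bmi1 fell by 1.33 on the log2 scale in EμMyc against Th-MYCN tumors (SE 0.27, LRT FDR 6.46e-06, QLF FDR 0.000476) and by 2.08 in the Casp2-/- pair (SE 0.30, LRT FDR 4.13e-10, QLF FDR 3.0e-05).

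Cbx2 (chromosome 11, 119022962 to 119031270), a CBX protein that also compacts chromatin, was at 32.0, 53.1, 51.7 and 42.2 CPM in EμMyc and 50.2, 59.3 and 73.8 CPM in EμMyc/Casp2-/- lymphomas. Th-MYCN tumors held 107, 76.3, 65.8 and 76.8 CPM, and Casp2-/- neuroblastomas held 87.9, 75.1, 105 and 91.6 CPM. The tumor types met only where EuMycC2ko245 (73.8 CPM) lay above MYCN332 (65.8 CPM). Cbx2 fell by 0.87 on the log2 scale in EμMyc against Th-MYCN tumors (SE 0.22, LRT FDR 0.000289, QLF FDR 0.00187) and by 0.55 in the Casp2-/- pair (SE 0.24, LRT FDR 0.0392, QLF FDR 0.0426). The second call was fragile: 5 of the 7 refits with a tumor left out lost it, with log2 values from -0.57 to -0.38, and without EuMycC2ko215 the LRT FDR was 0.224. It was also lost with sex as a covariate (log2 -0.575, LRT FDR 0.0592) and in a fit of only the groups compared (log2 -0.525, LRT FDR 0.0759).

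Cbx7 (chromosome 15, 79915807 to 79971119), the CBX protein of stem and germinal center cells, differed in the opposite direction to Cbx2. It was at 49.4, 66.1, 60.0 and 45.5 CPM in EμMyc and 52.6, 43.7 and 61.1 CPM in EμMyc/Casp2-/- lymphomas. Th-MYCN tumors held 12.0, 17.4, 16.0 and 16.1 CPM, and Casp2-/- neuroblastomas held 35.0, 25.6, 5.01 and 22.1 CPM. The Th-MYCN/Casp2-/- tumors thus spread over a wider range than the Th-MYCN tumors, and all 8 lay below the lymphomas. Cbx7 was 3.6-fold higher in EμMyc than in Th-MYCN tumors (log2 1.85, SE 0.39, LRT FDR 1.62e-05, QLF FDR 0.000816) and 2.39-fold higher in the Casp2-/- pair (log2 1.25, SE 0.43, LRT FDR 0.00621, QLF FDR 0.0159).

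The pair of the Bcor complex did not separate the tumor types. Bcor (chromosome X, 12036740 to 12160355), a corepressor that also binds Bcl6, was at 109, 117, 117 and 113 CPM in EμMyc and 40.2, 120 and 74.4 CPM in EμMyc/Casp2-/- lymphomas. Th-MYCN tumors held 109, 119, 82.7 and 110 CPM, and Casp2-/- neuroblastomas held 112, 80.3, 72.6 and 94.6 CPM. The 4 EμMyc tumors were close together, and EuMycC2ko215 was the lowest of all 15 tumors. Its log2 difference was 0.12 in EμMyc against Th-MYCN tumors (SE 0.26, LRT FDR 0.72) and -0.20 in the Casp2-/- pair (SE 0.29, LRT FDR 0.574), with 95% intervals of -0.40 to 0.63 and -0.76 to 0.37. Without EuMycC2ko215 the second value was 0.18 (LRT FDR 0.538).

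Kdm2b (chromosome 5, 122870665 to 122989823), the CpG-binding subunit, was at 49.9, 73.4, 49.3 and 44.3 CPM in EμMyc and 25.0, 64.5 and 42.6 CPM in EμMyc/Casp2-/- lymphomas. Th-MYCN tumors held 54.3, 67.3, 55.0 and 53.6 CPM, and Casp2-/- neuroblastomas held 46.8, 49.4, 40.2 and 55.1 CPM. EuMycC2ko215 was again the lowest of all tumors, at 25.0 CPM. The log2 difference was -0.09 in EμMyc against Th-MYCN tumors (SE 0.26, LRT FDR 0.793) and -0.11 in the Casp2-/- pair (SE 0.29, LRT FDR 0.754), with 95% intervals of -0.60 to 0.43 and -0.67 to 0.45. Without EuMycC2ko215 the second value was 0.23 (LRT FDR 0.452). Kdm2b shares 627 exon bases with Rnf34 on the opposite strand, which had a median of 632 reads per tumor, and the counts do not separate strands, so part of its reads may be those of Rnf34.

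**Figure D2:**
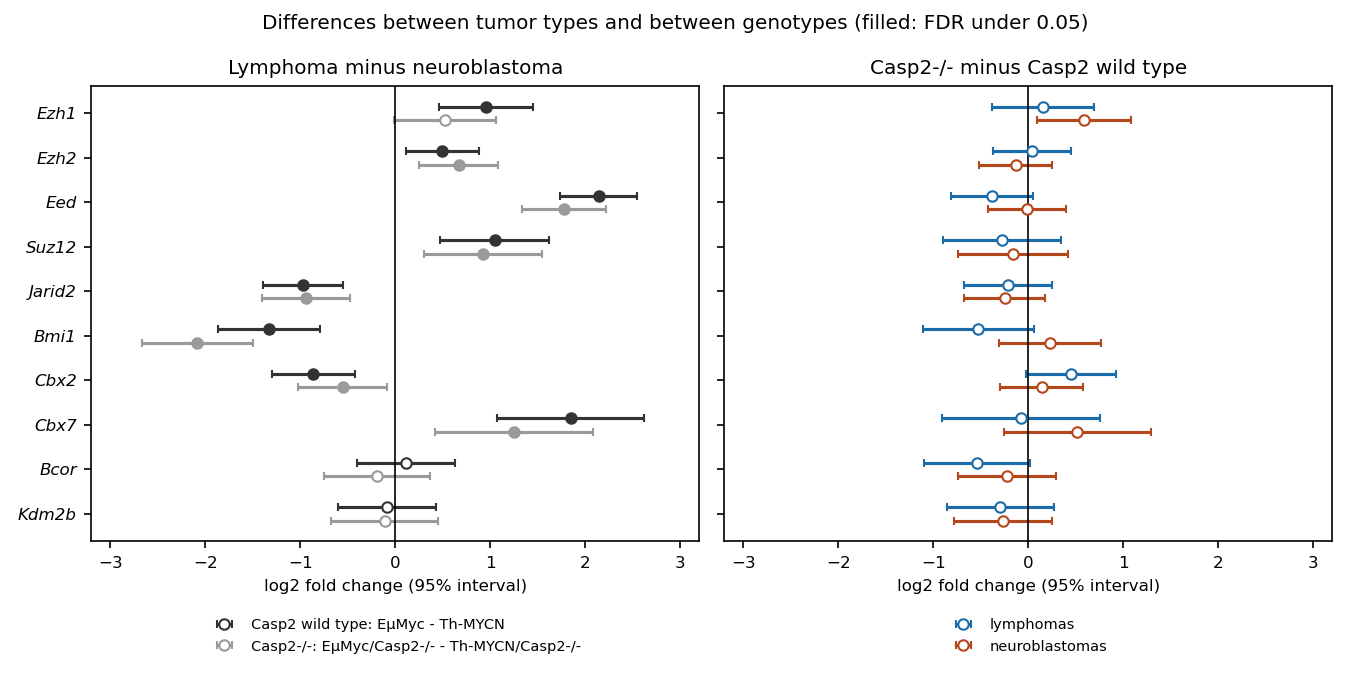
Log2 fold changes (horizontal axis) of the 10 genes with 95% intervals from the fitted model, between tumor types on the left and between genotypes on the right. Filled points passed the LRT at an FDR under 0.05, open points did not. On the left 8 and 7 members passed, and on the right all 20 points are open.

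Levels of different genes were compared per kb of exon. In lymphomas Ezh2 ranked first at 92.9 ± 2.22 CPM per kb (SD, n = 7), followed by Suz12 (75.4 ± 21.7) and Eed (75.0 ± 16.8), which did not differ beyond their spread. Far below them came Cbx7 (15.9 ± 2.51), Bmi1 (15.2 ± 6.49), Bcor (14.1 ± 4.29), Cbx2 (13.6 ± 3.44) and Jarid2 (12.7 ± 2.19), of which no neighbors differed beyond their spread. Kdm2b (8.51 ± 2.67) and Ezh1 (7.4 ± 1.36) were last, and Kdm2b reached into the range of the genes above it. In neuroblastomas, where Jarid2 lay above Cbx2 in 4 of 8 tumors, the order was Ezh2 (62.3 ± 14.5 CPM per kb, n = 8), Bmi1 (47.6 ± 7.37), Suz12 (37.4 ± 6.49), Jarid2 (24.4 ± 5.26), Cbx2 (22.5 ± 3.91), Eed (18.8 ± 2.74), Bcor (13.9 ± 2.46), Kdm2b (9.0 ± 1.34), Cbx7 (5.48 ± 2.66) and Ezh1 (4.55 ± 1.35). Of the neighbors in that order, Suz12 and Jarid2, Eed and Bcor, and Bcor and Kdm2b kept it in all 8 tumors. Eed and Suz12, whose proteins sit in the same complex, were thus about level in lymphomas and apart in neuroblastomas. The ratio of Suz12 to Eed per kb had a median of 1.03 (range 0.572 to 1.3) in lymphomas and 2.03 (range 1.61 to 2.28) in neuroblastomas.

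The alternative subunits differed in their mix. Of the expression per kb of both enzyme genes, Ezh2 made up 92.7 ± 1.2% in lymphomas (SD, n = 7) and 93.0 ± 2.32% in neuroblastomas (SD, n = 8). Of the sum over Cbx2, Cbx6, Cbx7 and Cbx8, Cbx7 took 35.7 ± 5.8% in lymphomas and 8.37 ± 3.62% in neuroblastomas. Cbx2 took 29.9 ± 4.0% and 35.6 ± 8.97%, and Cbx6 28.1 ± 6.92% and 49.5 ± 8.51%. The ratio of Cbx2 to Cbx7 per kb ran from 0.579 to 1.21 in lymphomas and from 2.25 to 18.7 in neuroblastomas. Within the lymphomas it was 0.579 to 0.829 in EμMyc and 0.854 to 1.21 in EμMyc/Casp2-/- tumors, which did not overlap. Cbx2 took 25.6 to 28.3% and 33.1 to 34.8% of the sum. Neither gene passed by genotype in lymphomas (LRT FDR 0.543 for Cbx2, 0.988 for Cbx7). The CPM of single genes did not overlap there for 3.7% of all genes, and the like value for ratios was not computed. Several ratios and shares were looked at, and this split of the ratio was not tested. Among the 6 PCGF genes, Pcgf2 took 5.45 ± 5.27% in lymphomas and 30.2 ± 3.59% in neuroblastomas, and Bmi1 25.1 ± 12.8% and 31.0 ± 3.24%. In lymphomas Pcgf6, of another variant PRC1, took 37.4 ± 14.5%. The ratio of Bmi1 to Pcgf2 was 0.727 to 1.42 in neuroblastomas and spread from 1.03 to 28.3 in lymphomas.

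**Figure D3:**
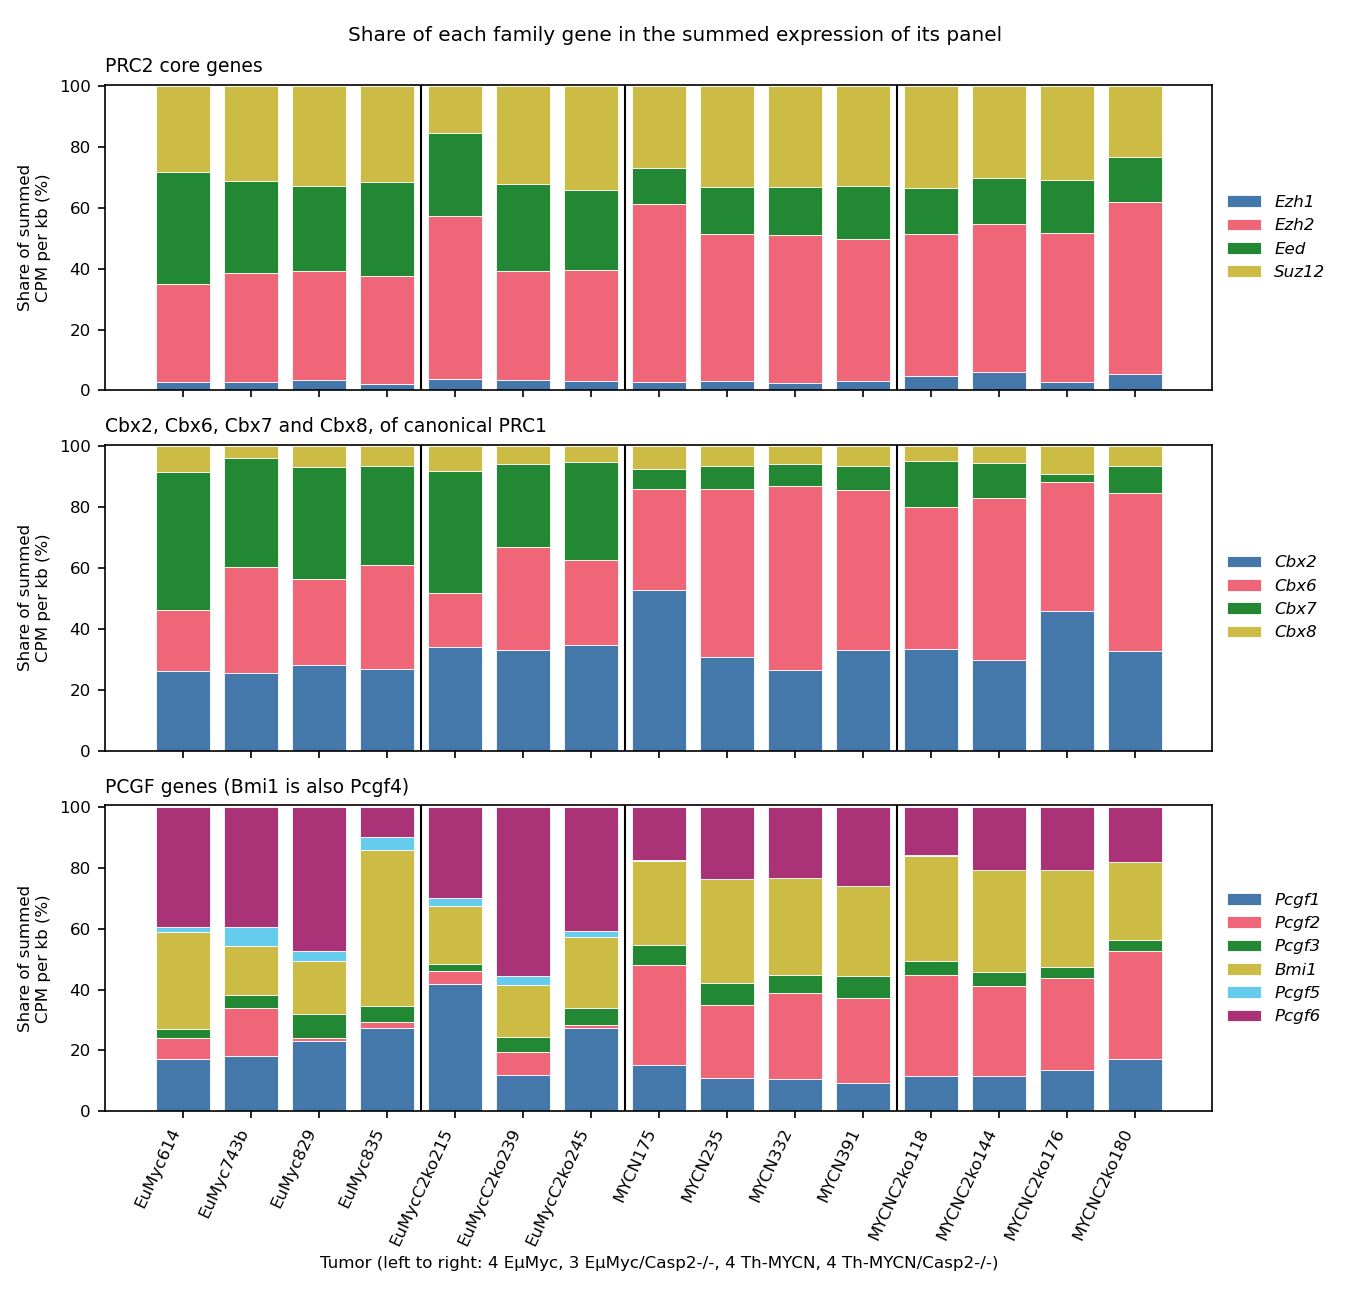
Share of each gene (vertical axis, percent) in the summed CPM per kb of the genes in its panel, for every tumor, with vertical lines between the 4 groups. Cbx7 takes a larger share in lymphomas and Cbx6 and Pcgf2 in neuroblastomas, and the PRC2 core of EuMycC2ko215 has the smallest share of Suz12 (15.6%).

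The other genes of these complexes examined here were 42 in number, and all passed the low-count filter. Of these, 9 rose and 16 fell in EμMyc against Th-MYCN tumors and 8 rose and 16 fell in the Casp2-/- pair, against the shares of all genes given above. All 5 of the 7 other PRC2 genes that passed in EμMyc against Th-MYCN tumors were higher in lymphomas, as were the 4 that passed in the Casp2-/- pair (Rbbp7, Aebp2, Phf19 and Epop, listed as E130012A19Rik). Epop, which links PRC2 to elongin, was at 71.9 CPM in lymphomas and 22.6 CPM in neuroblastomas on average (log2 1.71, SE 0.41, LRT FDR 0.000149). Of the 10 other PRC1 genes examined, Pcgf2, Cbx6, Phc1, Phc2, Scmh1 and Scml2 passed as lower in both pairs. The ligases Ring1 and Rnf2, the catalytic subunits that every PRC1 needs, did not pass, with log2 values of -0.11 (SE 0.25) and -0.15 (SE 0.30) in EμMyc against Th-MYCN tumors. Of the 15 other genes of variant PRC1 complexes, Usp7 and Pcgf5 were higher in both pairs and Bcorl1, Skp1a, Pcgf3, Auts2, Fbrsl1 and E2f6 lower. Of the 8 genes of the deubiquitinase complex PR-DUB, Asxl2 and Foxk1 were higher and Asxl3, Mbd5 and Foxk2 lower. Of the H3K27 demethylases, which remove the PRC2 mark, Kdm6b was lower in lymphomas (log2 -1.75, SE 0.24, LRT FDR 4.70e-12) and Kdm6a did not pass.

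The complex genes with the largest differences, among the 20 that passed in both pairs without overlap of the tumor types, were mostly lower in lymphomas. Of all 42, all lymphomas lay above all neuroblastomas for 6 and below them for 15, against 16.6% and 25.1% of all genes. The share of all genes that met both conditions was not computed. Asxl3, a PR-DUB subunit, had 0 to 3 reads in each lymphoma and at least 438 reads in each neuroblastoma, a ratio of pooled CPM of 444 (95% counting interval 242 to 927). Scml2, a PRC1-associated gene, had 0 to 3 reads in each lymphoma and at least 59 in each neuroblastoma, a ratio of 58.9 (29.7 to 137). Auts2, of a variant PRC1 that can activate genes in neurons, was at 1.67 CPM in lymphomas and 82.3 CPM in neuroblastomas on average (log2 -5.61, SE 0.69, LRT FDR 6.10e-11 in the Casp2 wild-type pair). Its relative Fbrsl1 was at 21.9 and 157 CPM (log2 -3.10, SE 0.25, LRT FDR 2.64e-30), Pcgf2, the alternative to Bmi1, at 10.9 and 132 CPM (log2 -3.16, SE 0.72, LRT FDR 0.000134), and Bcorl1, the homolog of Bcor, at 7.09 and 36.5 CPM (log2 -2.51, SE 0.44, LRT FDR 4.85e-07 in the Casp2-/- pair). Bcorl1 thus separated the tumor types while Bcor did not pass. Pcgf5 ran the other way, at 14.1 CPM in lymphomas and 1.18 CPM in neuroblastomas (log2 3.17, SE 0.50, LRT FDR 1.28e-08).

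**Figure D4:**
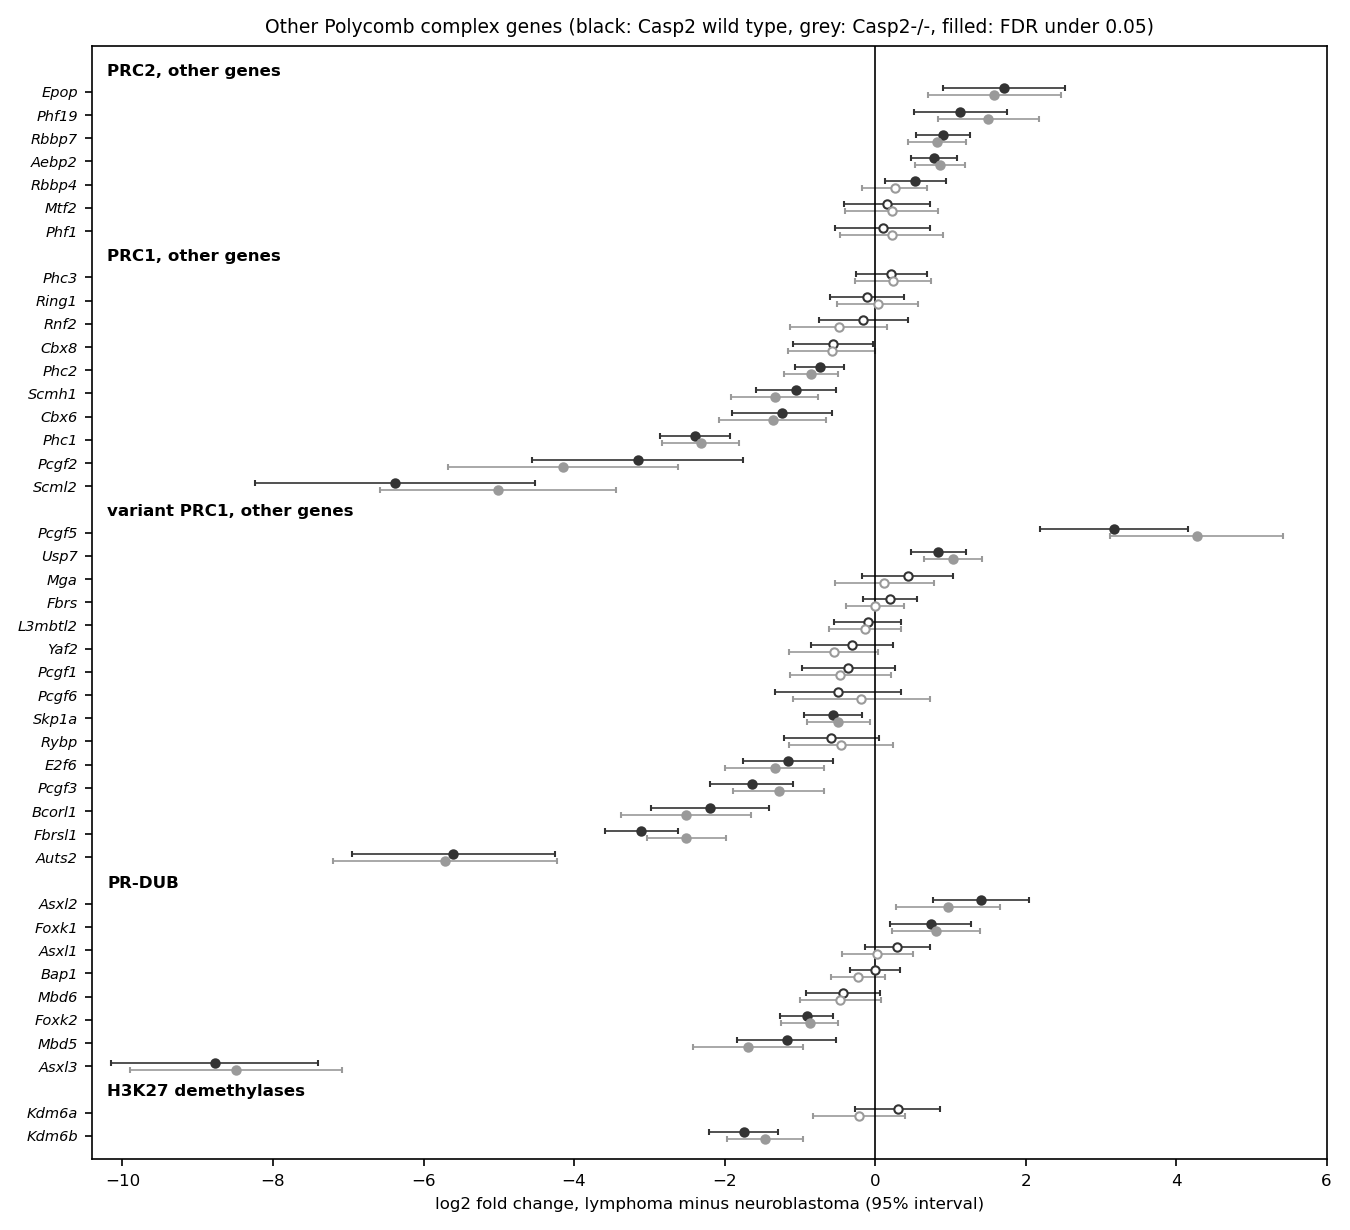
Log2 fold change of lymphomas against neuroblastomas (horizontal axis, 95% intervals) for the other 42 genes, grouped by complex, in the Casp2 wild-type (black) and Casp2-/- (grey) pairs. Filled points passed the LRT at an FDR under 0.05. The passing PRC2 genes lie to the right, and most passing PRC1 and variant PRC1 genes to the left. The fitted values of Asxl3 and Scml2 rest on 3 or fewer reads per lymphoma and depend on the model's prior count.

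Between genotypes no member passed in either tumor type. In the neuroblastomas, Casp2-/- minus intact, where 0.894% of all genes passed, the log2 differences of the members ran from -0.26 (Kdm2b) to 0.59 (Ezh1). Ezh1 was the only member with an unadjusted p under 0.05, as 7.78% of all genes had (log2 0.59, SE 0.25, LRT FDR 0.451, QLF FDR 0.6), with overlapping groups. Its mean was 22.2 ± 4.4 CPM with Casp2 intact and 33.2 ± 7.56 CPM without it (SD over 4 tumors each). In EμMyc/Casp2-/- against EμMyc tumors, where 1.5% of all genes passed, they ran from -0.54 (Bcor) to 0.45 (Cbx2). None had an unadjusted p under 0.05 there, against 9.89% of all genes. Suz12 changed sign without EuMycC2ko215 (log2 0.11, LRT FDR 1.0). LRT, QLF and DESeq2 each called 0 members in both comparisons. The groups overlapped for all 10 members in both, whereas they did not overlap for 6.62% of all genes in the neuroblastomas and 3.7% in the lymphomas. The 95% intervals still allow sizable differences, for example -1.10 to 0.02 for Bcor, -1.11 to 0.06 for Bmi1 and -0.91 to 0.76 for Cbx7 in the lymphomas.

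Bcor in lymphomas depended on single tumors. It was at 114 ± 3.95 CPM in EμMyc (SD, n = 4) and 78.1 ± 39.9 CPM in EμMyc/Casp2-/- tumors (SD, n = 3), a log2 difference of -0.54 (SE 0.29, LRT FDR 0.544, QLF FDR 0.618). Without EuMycC2ko215 it was -0.22, and without EuMycC2ko239, the tumor at 120 CPM, it was -0.97 and passed (LRT FDR 0.027). Summed T cell markers ran from 205 to 1625 CPM in EμMyc/Casp2-/- and from 103 to 218 CPM in EμMyc tumors, with 5 of 10 passing as higher (0 by QLF), and their part in the values of Bcor was not tested.

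The effect of Casp2 loss on the members was not shown to differ between tumor types. No member passed the interaction of genotype and tumor type, where 0.914% of all genes passed, and none had an unadjusted p under 0.05 there by the LRT. Bmi1 had the largest interaction (log2 -0.75, SE 0.41, FDR 0.612), with -0.52 in lymphomas and 0.23 in neuroblastomas. Without EuMycC2ko215 the interaction changed sign for Suz12 (log2 0.26), Bcor (0.01) and Kdm2b (0.26), with none passing. None of the 42 other complex genes passed in either genotype comparison or in the interaction. An unadjusted p under 0.05 was reached by 3 of the 42 in the neuroblastomas (Pcgf5, Fbrsl1 and Kdm6b) and by 0 in the lymphomas, against the same 7.78% and 9.89% of all genes.

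The variation of members within groups is given as a description, by Pearson's r over 15 tumors after subtracting each group's mean of log2 CPM. Bcor and Kdm2b, subunits of the same complex, had the highest r of the 45 member pairs, 0.81 (0.88 over the 7 lymphomas, 0.48 over the 8 neuroblastomas), and Kdm2b ranked 176 of 14879 genes by likeness to Bcor. Without EuMycC2ko215 it was 0.55. Eed and Suz12 had r = 0.76 (0.62 without that tumor), and Ezh2 and Cbx2 r = 0.65 (0.68 without it). For Ezh2 and Cbx2, r was 0.61 over the lymphomas and 0.93 over the neuroblastomas. Among the neuroblastomas MYCN175 held the most of both, at 269 CPM of Ezh2 and 107 CPM of Cbx2. Their r without MYCN175 was not computed. The lowest r was that of Bmi1 and Cbx2, at -0.61 (-0.68 without EuMycC2ko215). Suz12 and Bcor had r = 0.70, which was -0.01 without EuMycC2ko215. These points share libraries and depth, and the correlation with the summed proliferation genes ran from -0.26 (Cbx7) to 0.75 (Bcor). The 3 genes most like each member, by the same r over all 14879 other genes tested, were as follows. Among PRC2 genes, Ezh1 was most like Gm106 (0.930), Pamr1 (0.885) and Uprt (0.884), and Ezh2 most like 4930444P10Rik (0.951), Chst5 (0.940) and Dhx8 (0.924). Eed came closest to Tsr1 (0.952), Heatr3 (0.905) and Tbl1xr1 (0.891), and Suz12 to Taok1 (0.979), Tubgcp5 (0.970) and Smek2 (0.968). Jarid2 was nearest to Prmt7 (0.855), Crtc3 (0.848) and Dnajc25 (0.833). Among PRC1 genes, Bmi1 was nearest to Zfp760 (0.917), Armc3 (0.913) and Mllt4 (0.904), Cbx2 to Cbx1 (0.857), Gm13889 (0.853) and Eftud2 (0.851), the first of these a CBX gene outside Polycomb, and Cbx7 to St6gal2 (0.949), Nptxr (0.928) and Xkr7 (0.925). In the Bcor complex, Bcor was nearest to Clcn5 (0.928), Nup98 (0.922) and E130317F20Rik (0.920) and Kdm2b to BC037032 (0.945), Lrrc8b (0.928) and Gm10390 (0.927). Without EuMycC2ko215 the 3 values of Bcor came to 0.806, 0.78 and 0.791, and those of the other 9 members lay between 0.831 and 0.952. Values without other single tumors, such as MYCN175 for Ezh2, were not computed.

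Loci linked to these complexes were examined last. Cdkn2a, a tumor suppressor whose locus is held down by Bmi1 and Cbx7 in many cell types, was at 8.05, 6.24, 389 and 282 CPM in EμMyc and 57.6, 15.4 and 451 CPM in EμMyc/Casp2-/- lymphomas. In neuroblastomas it ranged from 0.367 to 2.9 CPM with Casp2 intact and from 0.72 to 11.3 CPM without it, so that MYCNC2ko144 reached above 2 lymphomas. It was higher in lymphomas in both pairs (log2 7.16, SE 1.15, LRT FDR 5.14e-06, and log2 5.57, SE 1.23, LRT FDR 0.000214), and 3 lymphomas, EuMyc829, EuMyc835 and EuMycC2ko245, held far more than the other 4. Its neighbor Cdkn2b did not pass in any comparison. Of 18 developmental regulators that Polycomb silences in many tissues, 3 passed the low-count filter (Gata6, Sox7 and Sox17). Sox17 was at 2.49 ± 2.06 CPM in lymphomas (SD, n = 7) and 1.34 ± 0.745 CPM in neuroblastomas (SD, n = 8). Of the 3, only Sox7 passed in any of the 5 comparisons, as higher in the Casp2-/- lymphomas than in the Casp2-/- neuroblastomas (log2 3.11, SE 0.86, LRT FDR 0.000475). The summed endothelial markers (5 genes) were higher in lymphomas in both pairs, with 4 of the 5 passing in each. In the Casp2-/- pair they came to 165.5 to 220.6 CPM against 18.03 to 36.15 CPM. In EμMyc against Th-MYCN tumors they came to 121.2 to 240.6 CPM against 48.6 to 74.15 CPM, and Sox7 did not pass there (LRT FDR 0.149). The neuroblastomas had been picked for absent or reduced blood vessels. The part of endothelial cells in the value of Sox7 was not tested.

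Of a Bcor expression signature, 8 genes were examined (Ube2l6, Slamf1, Cr2, Hivep3, St3gal5, Camkk1, Bcl6 and Lef1). The list was chosen by the study on these same lymphomas, so its direction there is not independent evidence. In EμMyc/Casp2-/- against EμMyc tumors all 8 had positive values (log2 1.46 to 4.84). An unadjusted LRT p under 0.05 was reached by 7, against 9.89% of all genes. At an FDR under 0.05, 2 passed by the LRT, against 1.5% of all genes, and 0 by QLF. The 2 were Cr2, a complement receptor of mature B cells (log2 4.84, SE 1.19, LRT FDR 0.0198, QLF FDR 0.17), and Hivep3, a zinc finger gene (log2 3.27, SE 0.93, LRT FDR 0.0488, QLF FDR 0.282). Cr2 was at 0.612, 0.0856, 1.02 and 1.17 CPM in EμMyc and at 3.52, 56.8 and 2.32 CPM in EμMyc/Casp2-/- tumors, so its mean rests on EuMycC2ko239, and the EμMyc values stand for 1 to 13 reads. Hivep3 was at 0.875, 1.2, 0.394 and 4.78 CPM and at 5.86, 45.2 and 0.909 CPM, with the same tumor far above the rest. Slamf1 and Ube2l6, like Cr2, did not overlap between the genotypes, as 3.7% of all genes did not, but did not pass (LRT FDR 0.0794 and 0.0589). Camkk1 (LRT FDR 0.0608), Bcl6 (0.166), St3gal5 (0.0505) and Lef1 (0.661) overlapped and did not pass. The study selected its cancer-associated genes at a fold over 2 and a looser FDR limit than the 0.05 used here. Slamf1, Ube2l6, Camkk1 and St3gal5 missed 0.05 but had LRT FDRs below the study's limit. Without EuMycC2ko215 1 of the 8 passed, and leaving out other single tumors gave 0 (EuMyc614, EuMyc743b or EuMyc829) to 6 (EuMycC2ko245). The number of genes that passed was 5 by DESeq2 and 4 with DESeq2 size factors. It was 1 with opposite-strand counts, with sex as a covariate, or in a fit of only the groups compared. In neuroblastomas Lef1 was at 0.611, 14.5, 0.577 and 14.1 CPM in Th-MYCN and 0 to 0.675 CPM in Th-MYCN/Casp2-/- tumors, so its value rests on MYCN235 and MYCN391. It passed the LRT there (log2 -4.64, SE 1.11, LRT FDR 0.0319) but not QLF (FDR 0.339), a fit with sex as a covariate (LRT FDR 0.553), or 5 of the 8 refits with a tumor left out (MYCN235, MYCN391, MYCNC2ko118, MYCNC2ko144 or MYCNC2ko180, LRT FDR up to 0.177). The study also measured Lef1 by quantitative PCR in other tumors, and reported a decrease in Th-MYCN/Casp2-/- and an increase in EμMyc/Casp2-/- tumors. The interaction, which passed for 0.914% of all genes, passed for Lef1 (log2 6.46, LRT FDR 0.022) and St3gal5 (log2 2.55, LRT FDR 0.0449), and for neither by QLF (FDR 0.318 for both). Leaving out single tumors lost it in 6 of 15 refits for Lef1 and 12 of 15 for St3gal5. The T cell and macrophage marker sums given above were highest in EuMycC2ko215, and their part in this list was not tested.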

How the data were processed

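The 15 mouse tumors analysed here had 1 library per mouse. For each tumor, the authors deposited 1 table of gene read counts in the STAR layout. Its separate columns hold unstranded counts and those of either strand alone. The count column used by the study (the fourth) was analysed. Its total was 0.952 to 0.972 of that of the opposite-strand column, so counts do not separate strands. Strandedness of the kit is not given in the sources used here. The first rows, which name no gene, were left out of totals. In the column used, reads on no gene were 56.9% to 60.3% of uniquely mapped reads.

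Genes over 1 CPM in at least 3 tumors (14880) were fitted in 1 edgeR 4.0.16 model (R 4.3.3) with 4 group means, TMM scaling and the likelihood ratio test (the study used edgeR likelihood ratio statistics on second-strand STAR counts on GRCm38, and also required a fold over 2), with Benjamini-Hochberg adjustment over all genes tested. The quasi-likelihood test, DESeq2 1.42.0, other scaling, filters, strand columns, sex as a covariate and leaving out each tumor were alternatives. The script was tested on simulated data. The members and lists were chosen with earlier results of these data known. Text names all members, the 6 complex genes with the largest difference per tumor-type comparison among those passing both without overlap, the Bcor signature and Cdkn2a/Cdkn2b genes, the 3 developmental regulators tested, and the 3 genes most like each member. Replicate numbers follow accession order. Each tumor is 1 mouse, so p-values measure the spread between mice. Intervals and floors from reads cover counting error only. Coordinates are GENCODE on GRCm38, and promoters are RefSeq on GRCm38.p6. Some genes of the lists are not reported here.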

Additional observations from a re-analysis of the deposited data

Results flagged for a closer look

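Of 90 gene and group combinations examined, 7 held a tumor far from the others of its group, where chance gives about 1 in 20. Kdm2b was at 67.32 CPM in the Th-MYCN tumor MYCN235, against 53.55 to 55.0 CPM in the other 3. Auts2 was at 5.84 CPM in the EμMyc tumor EuMyc835, against 0.1575 to 0.5133 CPM in its group. In EuMyc743b, another EμMyc tumor, Pcgf5 was at 29.43 CPM, against 10.41 to 12.6 CPM, and Lef1 at 83.07 CPM, against 2.548 to 15.35 CPM. In the Th-MYCN/Casp2-/- tumor MYCNC2ko144, Cr2 was at 1.735 CPM, against 0 to 0.2437 CPM, and Cdkn2a at 11.31 CPM, against 0.7202 to 1.446 CPM. Cdkn2b was at 7.244 CPM in EuMyc829, against 0.8748 to 1.38 CPM in the other EμMyc tumors.

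For 2 genes of the Bcor signature the interaction of genotype and tumor type passed edgeR's LRT, as for 0.914% of all genes, in a call that rests on single tumors. Lef1 had an interaction of 6.46 on the log2 scale (LRT FDR 0.022, QLF FDR 0.318) and St3gal5 of 2.55 (LRT FDR 0.0449, QLF FDR 0.318). The call of Lef1 was lost without EuMyc829, MYCN235, MYCN391, MYCNC2ko118, MYCNC2ko144 or MYCNC2ko180 (LRT FDR up to 0.0789). That of St3gal5 was kept only without EuMyc835, EuMycC2ko245 or MYCNC2ko176 among the 15 refits, and was lost with sex as a covariate (LRT FDR 0.0547) and with no low-count filter (LRT FDR 0.0606). The list was chosen by the study on these tumors.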

How the results depend on the processing

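No paired analysis was possible because replicate numbers follow accession order and each tumor is a separate mouse. Of 178 member counts under alternatives 173 stayed within 1.5 times, with a count that stayed at 0 scored as unchanged. The counts between genotypes and for the interaction were 0 by the LRT, so the factor says little about them. With a required fold over 2, 3 members were higher and 1 lower in EμMyc against Th-MYCN tumors, and 2 higher and 1 lower in the Casp2-/- pair. Leaving out single tumors gave 4 to 5 higher and 3 lower in the first, 3 to 5 higher and 2 to 3 lower in the second, and 0 to 1 lower in EμMyc/Casp2-/- against EμMyc tumors. The 1 was Bcor without EuMycC2ko239.

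The values that changed sign were all uncalled. With sex as a covariate Bcor was -0.114 in EμMyc against Th-MYCN tumors, Ezh2 -0.012 in lymphomas by genotype and Eed 0.021 in neuroblastomas by genotype. Eed was 0.007 there with no low-count filter and 0.002 with either-strand counts, and the Jarid2 interaction was -0.002 with either-strand and -0.003 with opposite-strand counts. Leaving out single tumors moved Kdm2b from -0.263 to 0.001 in EμMyc against Th-MYCN tumors. In the Casp2-/- pair Bcor ran from -0.575 to 0.176 and Kdm2b from -0.427 to 0.227. By genotype in neuroblastomas Ezh2 ran from -0.239 to 0.128, Eed from -0.137 to 0.099 and Suz12 from -0.244 to 0.006. In lymphomas Suz12 ran from -0.562 to 0.112 and Cbx7 from -0.208 to 0.056. The interaction ran from -0.092 to 0.277 for Ezh2, -0.415 to 0.263 for Suz12, -0.109 to 0.169 for Jarid2, -0.743 to 0.010 for Bcor and -0.395 to 0.260 for Kdm2b. The cause was not tested.

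Over all genes tested, genotype calls depended on the test: the LRT called 133 in neuroblastomas, 223 in lymphomas and 136 in the interaction, and QLF 5, 21 and 8. Group sizes of 3 and 4 limit what these comparisons can show.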
